A study of Mus musculus with 8 samples.

Results

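Oxidative phosphorylation is the last step of respiration, and its subunits are encoded partly in the nucleus and partly in the mitochondrion's own genome. The members described here are the protein-coding genes whose mouse symbols start as subunits of complexes I to V do: Nduf followed by a, b, c, s or v and a digit, Sdha to Sdhd, Uqcr, Cyc1, Cox followed by a digit from 4 to 8 and a, b or c, Atp5, and the mitochondrial mt-Nd, mt-Co, mt-Cytb and mt-Atp. The annotation holds 97 such genes, among them a second entry named Atp5o whose mean stayed below 10 at both stages. In morulae 94 of them were listed and in blastocysts 95, and 91 reached a mean of at least 10 over the 4 libraries in both tables: 78 of the nuclear genome and all 13 of the mitochondrial genome. They were 91 of the 13404 genes tested in morulae and of the 13651 tested in blastocysts. Complex I had 43 members, 7 of them mitochondrial, and complex II had 4, all nuclear. Complex III had 10 members with 1 mitochondrial, complex IV had 15 with 3 mitochondrial, and complex V had 19 with 2 mitochondrial.

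The study profiled mouse preimplantation embryos after knockdown of Smarca5, the gene of the chromatin remodelling ATPase SNF2H. Polyadenylated RNA was sequenced from pools of 20 embryos, with 2 libraries each of morulae labelled NC, morulae labelled Snf2h KD, blastocysts labelled NC and blastocysts labelled Snf2h KD. NC is taken here as the control; the labels spell out neither it nor the way the knockdown was done, and they give no strain. The 2 collection days that the series gives are not assigned to the stages. Each pool mixed all cells of 20 embryos, so fewer cells of a type and less RNA per cell cannot be told apart. The labels do not state that both pools of a group had different parents, and each p-value here reflects no more than how far libraries scattered, which may be technical scatter.

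Complexes I and II take electrons from NADH and succinate, complex III passes them to cytochrome c, and complex IV passes them on to oxygen. Complexes I, III and IV pump protons across the inner mitochondrial membrane, and complex V, the ATP synthase, makes ATP from their return. Complex II is encoded by nuclear genes alone, whereas the other complexes are assembled from the products of both genomes, and respiration is known to increase as the mouse embryo forms a blastocyst.

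Smarca5 stood at 9678 and 9760 in the morula NC libraries and at 501 and 470 in the KD libraries. In blastocysts it stood at 7000 and 8283 in NC and at 906 and 855 in KD. It fell at both stages, with log2 fold changes of -4.32 and -3.11 (limma, Benjamini-Hochberg adjusted p = 0.000188 and 0.000593), so the targeted gene went with the labels in all 8 libraries. All values are normalized abundances as the authors deposited them, and their sums ran from 17151880 to 17823304 per morula library and from 18896774 to 19247880 per blastocyst library. All 9 embryo markers checked reached a mean of 10 at both stages. In KD blastocysts 5 of the 9 were higher without overlap, beside 24.6% of all genes. These were Krt8, Krt18, Cdx2, Gata3 and Tead4, all known from the trophectoderm. Another 2, the pluripotency genes Pou5f1 and Sox2, were lower without overlap, beside 24.9% of all genes. Nanog, also a pluripotency gene, overlapped at 5783 and 6782 in NC and 5943 and 6542 in KD, and Gata6 overlapped as well. The summed level of the 9 was 124526 and 126836 in blastocyst NC libraries and 132843 and 146252 in KD libraries. In KD morulae Krt8 and Krt18 were lower without overlap, where 21.2% of all genes were. The sum was 73708 and 69206 in NC and 73308 and 65833 in KD morulae. Of 12 markers of cumulus, granulosa and stromal cells, 3 reached that mean at each stage, and Fshr, Cyp19a1, Has2, Ptx3 and Tnfaip6 were in neither table. The list's summed level was 88.1 and 186 in morula NC libraries against 267 and 276 in KD libraries, and 171 and 296 against 155 and 383 in blastocysts. The part of such cells, and that of the embryo markers' differences, in the differences below was not tested.

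Some mitochondrial genes share bases, and this bears on how far their values can be told apart. In mm10, mt-Atp8 lies at chrM:7766-7969 and mt-Atp6 at chrM:7927-8607, both on the plus strand, so they have 43 bases in common. mt-Nd4l and mt-Nd4 share 7 bases at chrM:10167-10173, the end of the first gene and the start of the second. The shared stretches are shown with the start codon of the second gene at their left end.
mt-Atp8 and mt-Atp6, chrM:7927-7969, plus strand: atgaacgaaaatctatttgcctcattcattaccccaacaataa
mt-Nd4l and mt-Nd4, chrM:10167-10173, plus strand: atgctaa
Reads that overlap either stretch could have been assigned to either gene of the pair. mt-Nd5 and mt-Nd6 overlap by 14 bases on opposite strands. Nothing used here states whether the authors' counting took strand into account, so reads over that stretch cannot be told apart. These overlaps are of annotated genes, and transcripts that run beyond a gene or hold both genes of a pair were not examined. The values of a pair may therefore not be independent, although its genes are counted singly below.

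No member passed an adjusted p of 0.05 between KD and NC at either stage. In morulae 1 of 13404 genes passed, 0.00746%, and in blastocysts 12 of 13651 did, 0.0879%. At an unadjusted p under 0.05 in limma, 2 members were higher and 1 was lower in KD morulae, where 5.16% of all genes were higher and 5.22% lower. In KD blastocysts 2 members were higher and 7 lower at that threshold, against 8.83% and 8.73% of all genes. Everything said below of single members is therefore a measured difference that did not pass the test across all genes.

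In blastocysts the members of the 2 genomes stood on opposite sides of NC. All 13 mitochondrial members were higher in KD blastocysts than in NC, by 0.007 to 0.25 on the log2 scale with a median of 0.12; after quantile normalization, which gives the genes at the top of every library nearly the same values, 7 were higher, 4 lower and 2 (mt-Co1 and mt-Atp6) at 0, with a median of 0.0049, and after rescaling to the sums of nuclear genes 12 were higher. Of the 78 nuclear members 58 were lower and 20 higher, with a median of -0.080, while the median of all genes tested was 0.002. Both KD libraries lay on 1 side of both NC libraries, lower, for 31 of the 78 nuclear members (39.7%), where 24.9% of all genes did; the higher side held 5 nuclear members, where 24.6% of all genes were. Among the mitochondrial members 8 of 13 were higher without overlap and none lower. In the same KD libraries trophectoderm markers were higher and Pou5f1 and Sox2 lower, while Nanog overlapped, as given above. The nuclear difference depended on the KD library. Without KD replicate 1 the nuclear median was -0.015, with 44 of 78 lower, and without KD replicate 2 it was -0.12, with 65 of 78 lower. Some mitochondrial members turned lower as well. These were mt-Nd1 (-0.028) and mt-Atp8 (-0.052) without KD replicate 1, and mt-Nd1 (-0.031) and mt-Co1 (-0.036) without NC replicate 2.

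Morulae did not have this split. There 37 nuclear members stood higher and 41 lower, and their median was -0.006 beside -0.007 for all genes, and the nuclear median was 0.029 after quantile normalization and 0.012 after rescaling to the sums of nuclear genes. Mitochondrial genes stood higher in 4 cases and lower in 9, at a median of -0.045. This direction turned with the libraries used: without NC replicate 2, 11 of 13 were higher. Groups did not overlap for 11 nuclear members on the higher side and 17 on the lower, against 20.7% and 21.2% of all genes. They did not overlap for 1 mitochondrial member on each side. Of protein-coding genes with an NC mean of at least 100, 18.5% were higher and 24.2% lower without overlap, and their median was -0.030. The difference between the stages was tested in 1 fit over the 12875 genes tested in both tables: 0.0% of genes and no member passed in limma, with 5.34% of genes and 1 member at an unadjusted p under 0.05. That member was Atp5g2, whose KD difference was lower by 0.87 (log2) in blastocysts than in morulae (limma adjusted p = 0.905).

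**Figure D1:**
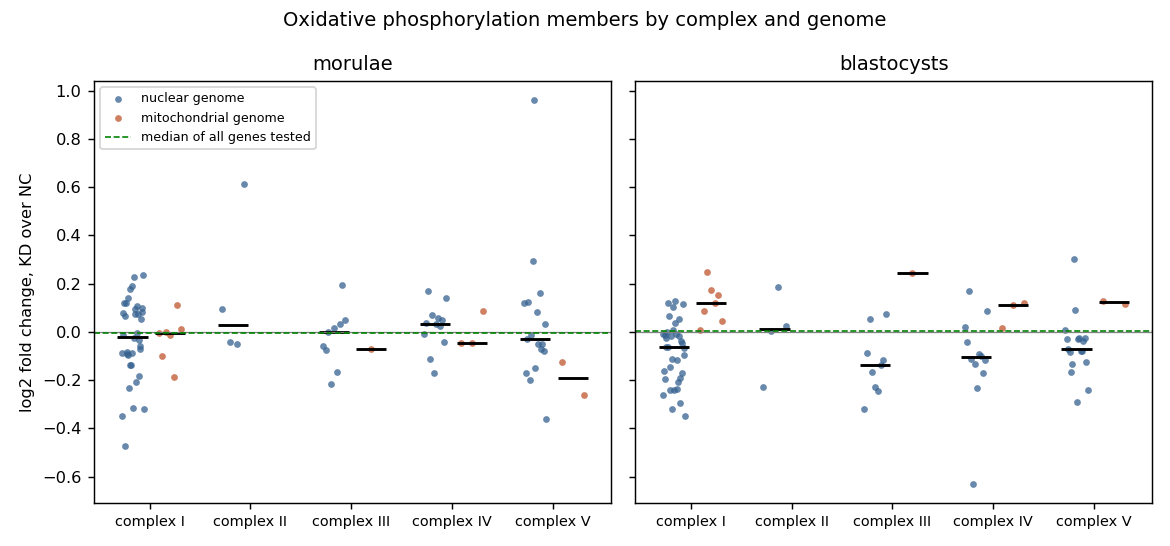
Each point is 1 member, its log2 fold change of KD over NC on the vertical axis and its complex on the horizontal axis, for morulae (left) and blastocysts (right); black bars are medians and the dashed line is the median of all genes tested. In blastocysts all 13 mitochondrial members lie above 0 as deposited (7 of 13 after quantile normalization) and 58 of 78 nuclear members lie below it.

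Seen library by library, the mitochondrial median in morulae followed the replicate number more than the group. Relative to the NC mean it was -0.16 in NC replicate 1 and 0.16 in NC replicate 2, and -0.11 and 0.052 in the 2 KD libraries. The KD libraries thus lay between the NC libraries. In blastocysts it was 0.037 and -0.037 in NC and 0.12 in both KD libraries, above both NC libraries. The nuclear median was -0.006 and 0.006 in blastocyst NC libraries, -0.12 in KD replicate 1 and -0.015 in KD replicate 2, so the second KD library lay close to NC.

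**Figure D2:**
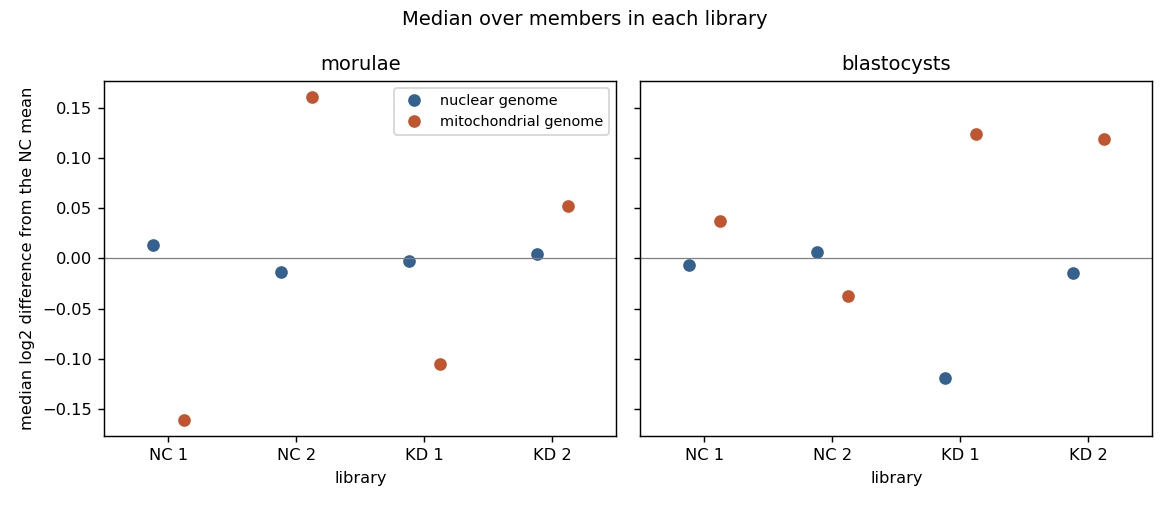
The vertical axis is the median over members of the log2 difference from the mean of the NC libraries, and each point is 1 library of morulae (left) or blastocysts (right), blue for 78 nuclear and orange for 13 mitochondrial members. In blastocysts both KD libraries stand at 0.12 for mitochondrial members, while only KD replicate 1 stands well below NC for nuclear members; after quantile normalization the mitochondrial median difference was 0.0049.

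Summed over members, mitochondrial messages made up 73.1% and 71.9% of all oxidative phosphorylation abundance in blastocyst NC libraries and 75.1% and 73.7% in KD libraries. The KD libraries were higher by 1.90 percentage points on average, and did not overlap with NC. The sum of mitochondrial members was 597404 and 571451 in NC and 617025 and 620886 in KD, while the nuclear sum was 219863 and 223303 in NC and 204823 and 221291 in KD. The mitochondrial sum was thus higher in both KD libraries, while the nuclear sum of KD replicate 1 lay below both NC libraries and that of KD replicate 2 between them. In morulae the share was 72.2% and 75.8% in NC and 72.5% and 74.6% in KD, with the KD libraries inside the range of NC. Members of both genomes together were 3.11% to 3.44% of the whole table in morulae and 4.21% to 4.40% in blastocysts; each table was normalized alone, and these are shares within a library.

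Complex I, the NADH dehydrogenase, had 27 of its 36 nuclear members lower in KD blastocysts. Of these, 12 were lower without overlap (33.3%), beside 24.9% of all genes. Among protein-coding genes with an NC mean of at least 100 that share was 27.5%. The nuclear median of the complex was -0.062. Without KD replicate 1 that median was -0.013, with 20 of 36 lower. Ndufb11, a subunit of the membrane arm, stood at 1581 and 1867 in NC and at 1392 and 1359 in KD, lower by 0.32 (SE 0.12; limma adjusted p = 0.251). Ndufa10, an accessory subunit, stood at 2259 and 2617 against 1983 and 2069, a log2 fold change of -0.26 (limma adjusted p = 0.291). Both KD libraries of both genes were below both NC libraries. Ndufv3, which belongs to the flavoprotein part, was 913 and 778 in NC and 755 and 582 in KD blastocysts (-0.35), and 690 and 886 against 584 and 671 in morulae (-0.32). It was lower without overlap at both stages, and adjusted p was 0.367 and 0.625 in limma.

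In morulae, Ndufa3, an accessory subunit, had the smallest p of complex I. It stood at 626 and 580 in NC and at 468 and 401 in KD morulae, a log2 fold change of -0.48 (SE 0.19; limma adjusted p = 0.474). In blastocysts its libraries overlapped, at 697 and 597 in NC and 597 and 640 in KD. Ndufa1, another small subunit, stood at 249 and 275 against 229 and 183 in morulae (-0.35), and at 393 and 405 against 393 and 400 in blastocysts. Ndufa9 was 2416 and 2712 in NC and 2074 and 2289 in KD morulae (-0.23), and 3076 and 2865 against 2540 and 2832 in blastocysts (-0.15). Ndufa3 and Ndufa1 were thus lower without overlap in morulae and overlapped in blastocysts, and Ndufa9 was lower without overlap at both stages. Values of Ndufb4, at 313 to 376 in blastocysts, are uncertain because a processed pseudogene, Ndufb4c, was listed at 329 to 456 in the same libraries. Pseudogenes of the other members were not searched for. Ndufa4 carries a complex I name but is known as a subunit of complex IV; moving it gave a complex IV median of -0.069 in place of -0.093 in blastocysts.

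The 7 mitochondrial members of complex I were all higher in KD blastocysts as deposited, with a median of 0.12. mt-Nd4 stood at 44116 and 46337 in NC and at 49460 and 52467 in KD, higher by 0.17 (SE 0.074; limma adjusted p = 0.294). mt-Nd3 stood at 1318 and 1407 against 1606 and 1630, higher by 0.25 (SE 0.11; limma adjusted p = 0.299). Neither overlapped, and mt-Nd5 and mt-Nd2 did not either; after quantile normalization mt-Nd4 and mt-Nd5 were no longer higher. mt-Nd1, mt-Nd4l and mt-Nd6 overlapped between the groups. In morulae the same 7 genes had a median of -0.004 and all overlapped.

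Complex II, succinate dehydrogenase, had a single member past an unadjusted p of 0.05 at each stage, Sdhd in morulae and Sdha in blastocysts. Sdhd, one of its membrane anchors, stood at 517 and 358 in NC and at 648 and 668 in KD morulae, higher by 0.61 (SE 0.23; limma adjusted p = 0.453). Its NC libraries were far apart, and in blastocysts it overlapped at 1284 and 1526 against 1294 and 1561. Sdha, the flavoprotein subunit that oxidizes succinate, stood at 5435 and 5739 in NC and at 4906 and 4637 in KD blastocysts, lower by 0.23 (SE 0.087; limma adjusted p = 0.25). Sdhc, the other anchor, was 1121 and 1218 in NC and 1310 and 1348 in KD blastocysts, a log2 fold change of 0.19 (limma adjusted p = 0.447), so that within this complex Sdha was lower and Sdhc higher without overlap. Sdhb, the iron-sulfur subunit, overlapped at both stages.

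Complex III, the cytochrome bc1 complex, had the lowest nuclear median in KD blastocysts, -0.14, with 7 of 9 nuclear members lower and 6 without overlap, where 24.9% of all genes were. Cyc1, cytochrome c1, had the smallest p of any member: it stood at 5235 and 5257 in NC and at 4149 and 4264 in KD blastocysts, lower by 0.32 (SE 0.083; limma adjusted p = 0.143). The 2 libraries of each group were close together and well apart from the other group, and the difference was -0.34 to -0.30 under the alternatives tried. Cyc1 lies at chr15:76343523-76346260 on the plus strand in mm10. In morulae Cyc1 overlapped, at 3066 and 2739 against 2998 and 2579.

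The core proteins of complex III, Uqcrc1 and Uqcrc2, were also lower in KD blastocysts. Uqcrc1 stood at 3769 and 3815 in NC and at 3199 and 3279 in KD (-0.23, SE 0.087; limma adjusted p = 0.251). Uqcrc2 stood at 3574 and 3850 against 2967 and 3310 (-0.24; limma adjusted p = 0.283), and at 2323 and 2229 against 1965 and 2086 in morulae (-0.17). Neither gene overlapped in blastocysts, and Uqcrc1 overlapped in morulae. Uqcrb, a small subunit, was lower without overlap at both stages, at 1975 and 1929 against 1681 and 1802 in blastocysts and at 1700 and 1842 against 1424 and 1627 in morulae. Uqcrfs1, the Rieske iron-sulfur protein, was also lower without overlap in KD blastocysts, at 2612 and 2733 against 2298 and 2570.

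The single mitochondrial member of complex III went the other way. mt-Cytb, cytochrome b, stood at 46418 and 40178 in NC and at 52760 and 49519 in KD blastocysts, higher by 0.24 (SE 0.092; limma adjusted p = 0.245). Its NC libraries differed more from each other than the KD libraries did, and the groups did not overlap, but after quantile normalization the difference was 0.023 (limma adjusted p = 0.911). It was 47496 and 54610 in NC and 47798 and 49282 in KD morulae, where the KD libraries lay inside the range of NC. Cytochrome b, cytochrome c1 and the Rieske protein are the redox subunits of this complex, and in KD blastocysts the first was higher as deposited and the other two were lower.

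**Figure D3:**
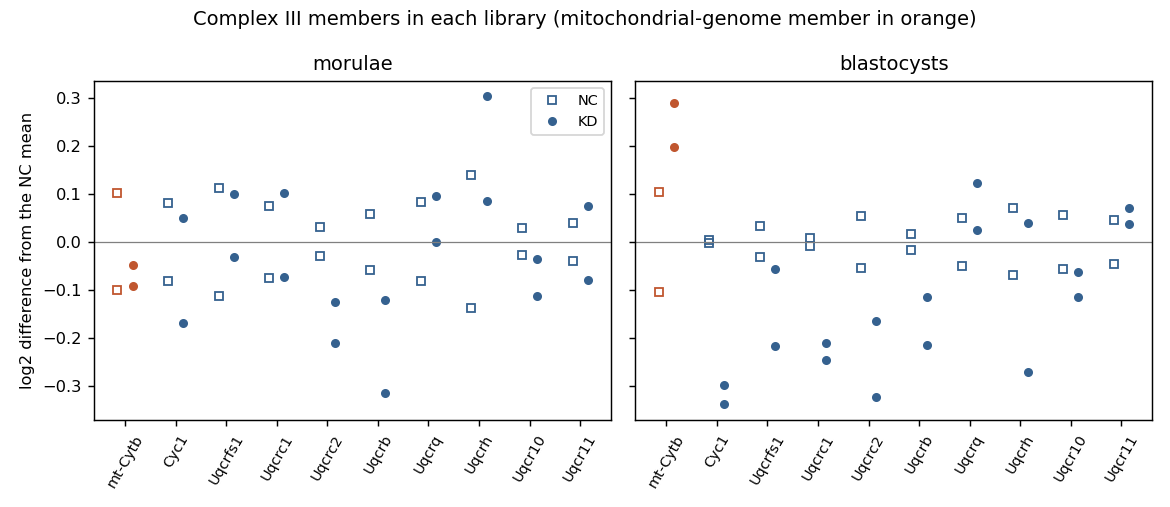
The vertical axis is each complex III member's log2 difference from its NC mean, with open squares for NC and filled circles for KD libraries of morulae (left) and blastocysts (right). In blastocysts both KD libraries of 6 nuclear members lie below both NC libraries, and those of mt-Cytb, in orange, lie above.

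Complex IV, cytochrome c oxidase, had 9 of 12 nuclear members lower in KD blastocysts, 7 without overlap (beside 24.9% of all genes), and a nuclear median of -0.105; without KD replicate 1 that median was -0.047. Cox6b2, known as the testis form of subunit VIb, stood at 186 and 240 in NC and at 151 and 123 in KD blastocysts, lower by 0.63 (SE 0.26; limma adjusted p = 0.282). In morulae it overlapped at 127 and 187 against 144 and 181. Cox6b1, the widespread form, was 2491 and 2364 against 2167 and 2329 in blastocysts, so Cox6b2 made up 6.94% and 9.22% of the pair's sum in NC and 6.52% and 5.01% in KD. The KD libraries were below both NC libraries for each form.

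Cox6a1, the widespread form of subunit VIa, was the nuclear member higher without overlap at both stages. It stood at 5406 and 5439 in NC and at 6101 and 6091 in KD morulae (0.17; limma adjusted p = 0.638), and at 8783 and 8831 against 9308 and 10557 in blastocysts (0.17; limma adjusted p = 0.383). Cox6c, another small subunit, was lower without overlap at both stages, at 3256 and 3170 against 3003 and 2715 in morulae and 3694 and 3935 against 3377 and 3571 in blastocysts. The tissue-restricted forms were scarce. Of the heart and muscle forms, Cox6a2 was not listed in morulae and reached at most 13.9 in a blastocyst library, and Cox7a1 stood at 75.6 to 115 across all libraries. Of the forms known from testis, Cox8c reached at most 3.86 and Cox7b2 at most 15.4. Cox7a2, the widespread form of subunit VIIa, made up 35.1% to 45.0% of the Cox7a family's sum, and most of the rest was Cox7a2l, known for its part in joining complexes. Cox7b and Cox8a made up 97.48% or more of their families in every library.

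The mitochondrial genes mt-Co1, mt-Co2 and mt-Co3 encode the catalytic core of complex IV. mt-Co3 stood at 40955 and 39554 in NC and at 43850 and 43708 in KD blastocysts (0.12; limma adjusted p = 0.415), and at 17562 and 17534 against 19060 and 18198 in morulae (0.086). It was the mitochondrial member higher without overlap at both stages, though after quantile normalization it was no longer higher in blastocysts. mt-Co2 was 49419 and 54637 in NC and 55506 and 56675 in KD blastocysts. mt-Co1, the most abundant message of all members, overlapped at 220065 and 204949 against 212467 and 216936.

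Complex V, the ATP synthase, had 14 of 17 nuclear members lower in KD blastocysts. Of these, 5 were lower without overlap (29.4%), beside 24.9% of all genes. Among protein-coding genes with an NC mean of at least 100 that share was 27.5%, close to that of the complex. The nuclear median of the complex was -0.071. Without KD replicate 1 the median was -0.015, with 9 of 17 lower. The subunits of its catalytic head were among those that overlapped: Atp5b, the beta subunit, stood at 28788 and 29252 in NC and at 27462 and 29410 in KD blastocysts, and Atp5a1, the alpha subunit, overlapped as well. In morulae Atp5b was lower without overlap, at 21225 and 22653 against 19797 and 19216 (-0.17; limma adjusted p = 0.615). Atp5e, the epsilon subunit, was lower without overlap at both stages, at 1735 and 1758 against 1509 and 1601 in blastocysts and 1212 and 1188 against 993 and 1096 in morulae. Atp5s, which is a coupling factor rather than a structural subunit, stood at 226 and 200 against 161 and 170 in morulae (-0.36) and at 152 and 146 against 121 and 132 in blastocysts (-0.24).

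Subunit c forms the membrane ring of the ATP synthase, and the genes Atp5g1, Atp5g2 and Atp5g3 are known to encode the same mature protein behind different import sequences. These genes held the smallest p in morulae and 2 of the 9 members past an unadjusted p of 0.05 in blastocysts, and they differed in opposite directions. Their promoters are shown because the same product thus comes from genes with different values in the same libraries. The windows run from 250 bases before to 50 after the RefSeq start in GRCm38.p6, all on the minus strand, and capitals mark matches to the motif GCGCANGCG of the respiratory gene activator NRF1, searched on both strands.
Atp5g1, chr11:96075582-96075881: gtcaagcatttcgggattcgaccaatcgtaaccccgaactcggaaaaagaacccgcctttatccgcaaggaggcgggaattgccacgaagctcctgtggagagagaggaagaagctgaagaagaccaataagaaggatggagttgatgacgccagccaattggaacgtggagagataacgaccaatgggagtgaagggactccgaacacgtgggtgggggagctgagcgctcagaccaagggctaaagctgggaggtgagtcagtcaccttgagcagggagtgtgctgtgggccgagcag
Atp5g2, chr15:102670998-102671297: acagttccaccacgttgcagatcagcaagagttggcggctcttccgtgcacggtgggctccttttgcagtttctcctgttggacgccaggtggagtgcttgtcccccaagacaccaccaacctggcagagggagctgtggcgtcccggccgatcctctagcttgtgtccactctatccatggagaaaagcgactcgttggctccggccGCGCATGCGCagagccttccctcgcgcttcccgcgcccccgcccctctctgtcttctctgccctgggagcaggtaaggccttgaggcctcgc
Atp5g3, chr2:73911277-73911576: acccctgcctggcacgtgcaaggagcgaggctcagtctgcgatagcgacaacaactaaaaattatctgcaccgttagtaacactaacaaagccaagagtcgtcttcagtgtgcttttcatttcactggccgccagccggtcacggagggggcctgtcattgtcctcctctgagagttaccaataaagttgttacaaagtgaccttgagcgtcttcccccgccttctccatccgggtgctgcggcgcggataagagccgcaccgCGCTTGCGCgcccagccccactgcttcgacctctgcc
The window of Atp5g2 holds 2 overlapping matches, 1 per strand, that of Atp5g3 holds 1, and that of Atp5g1 holds none. The Atp5g2 window lies inside the gene as annotated, chr15:102662864-102672352, so the bases before the annotated start of that gene are not shown. The matches are descriptions of these letters and say nothing of binding.

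Atp5g2, the least abundant of the subunit c genes, stood at 167 and 135 in NC and at 264 and 324 in KD morulae, higher by 0.96 on the log2 scale (SE 0.26; limma adjusted p = 0.377). Both KD libraries were well above both NC libraries. In blastocysts it overlapped, at 525 and 428 in NC and 504 and 505 in KD. Atp5g1 stood at 3533 and 3396 in NC and at 4068 and 4479 in KD blastocysts, higher by 0.30 (SE 0.095; limma adjusted p = 0.186). Atp5g3 stood at 5470 and 6205 in NC and at 4392 and 5157 in KD blastocysts, lower by 0.29 (SE 0.11; limma adjusted p = 0.259). Neither overlapped there, whereas in morulae Atp5g1 was 2978 and 4114 against 3954 and 4655 and Atp5g3 was 3185 and 2592 against 2763 and 2424, and both overlapped.

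As a share of the 3 genes' summed abundance, Atp5g1 was 37.1% and 33.9% in blastocyst NC libraries and 45.4% and 44.2% in KD, and Atp5g3 was 57.4% and 61.9% in NC and 49.0% and 50.9% in KD. The shares did not overlap. In morulae Atp5g1 made up 47.1% and 60.1% in NC and 56.6% and 62.9% in KD, which overlap, and Atp5g2 went from 2.63% and 1.97% to 3.78% and 4.38%. Over the last 234 coding bases before the stop codon, which hold the shared part of the protein, Atp5g1 and Atp5g2 were identical at 84.6% of positions, Atp5g1 and Atp5g3 at 78.6%, and Atp5g2 and Atp5g3 at 77.4%. The longest unbroken run shared there was 20 bases, between Atp5g1 and Atp5g2.

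**Figure D4:**
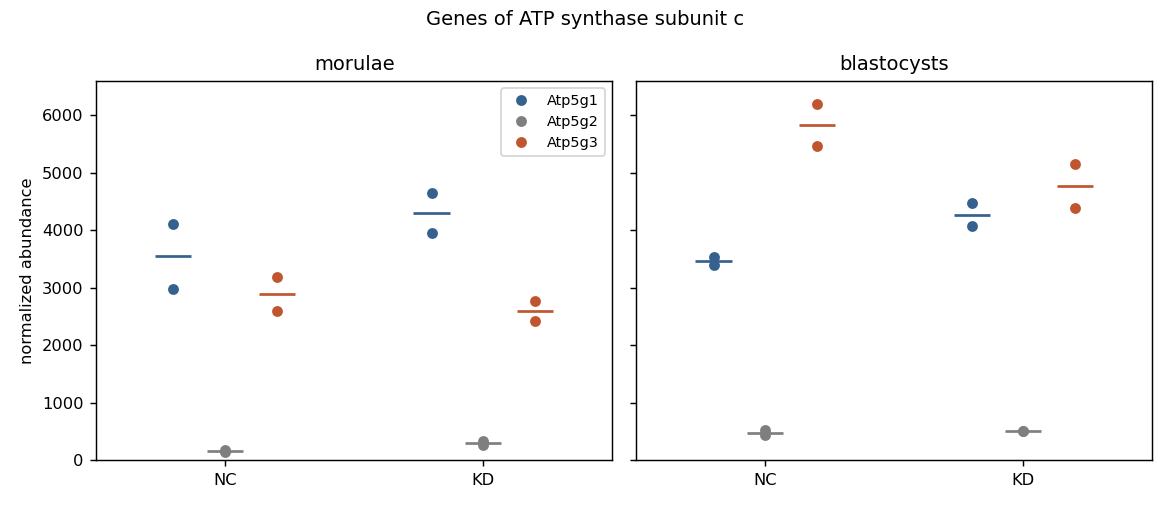
The vertical axis is normalized abundance and each point is 1 library of NC or KD morulae (left) and blastocysts (right); bars are group means of 2 libraries. In blastocysts the KD libraries of Atp5g1 (4068 and 4479) lie above NC and those of Atp5g3 (4392 and 5157) below it.

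The mitochondrial members of complex V, mt-Atp8 and mt-Atp6, are adjacent and overlap as shown above. mt-Atp8 had the smallest p of the mitochondrial members in morulae, at 5182 and 5906 in NC and 4800 and 4423 in KD, lower by 0.26 (SE 0.12; limma adjusted p = 0.536). Its groups did not overlap there, but in blastocysts they did, at 4427 and 3988 against 5122 and 4054. mt-Atp6 overlapped in morulae and was higher without overlap in KD blastocysts, at 33960 and 32247 against 36671 and 35587, a difference that was 0 after quantile normalization.

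The make-up of the mitochondrial messages differed between the stages, in NC and KD alike. Within a library, mt-Co1 made up 18.5% to 23.2% of the summed mitochondrial members in the 4 morula libraries and 34.4% to 36.8% in the 4 blastocyst libraries. mt-Co3 made up 3.77% to 4.86% in morulae and 6.86% to 7.11% in blastocysts. The 7 complex I genes together went the other way, at 41.0% to 47.5% in morulae and 33.8% to 34.5% in blastocysts, with mt-Nd2 at 7.35% to 10.04% and 4.44% to 4.71%. mt-Cytb made up 11.3% to 12.3% of the sum in morulae and 7.03% to 8.55% in blastocysts, and mt-Co2, at 7.999% to 8.85% and 8.27% to 9.56%, overlapped between the stages. The stages were deposited in separate tables, so this difference was not tested.

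**Figure D5:**
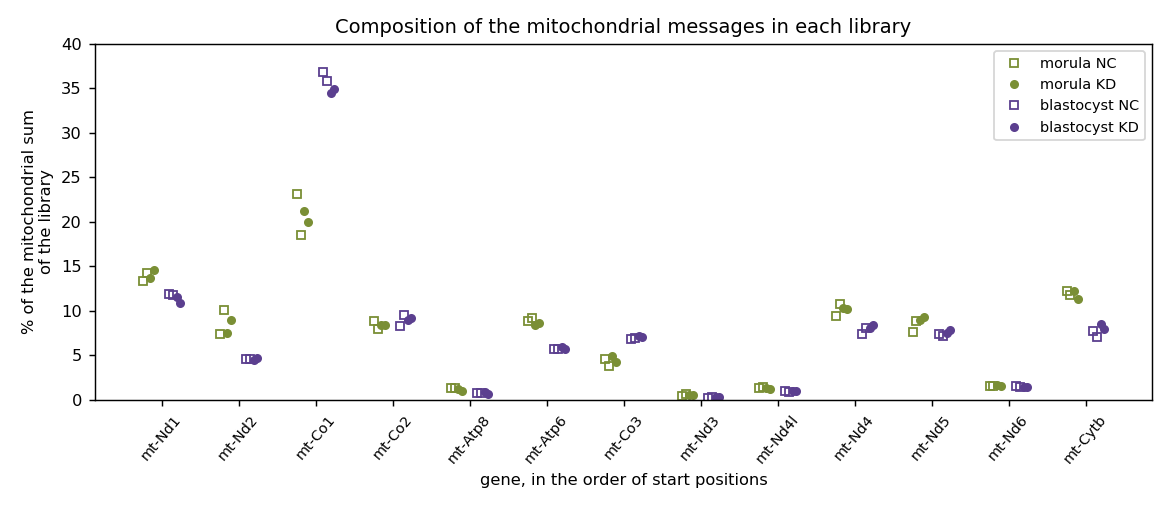
The vertical axis is each gene's percentage of the summed mitochondrial members in a library, and genes are ordered by their start positions on the mitochondrial genome; open squares are NC and filled circles KD libraries. mt-Co1 stands at 18.5% to 23.2% in morulae and 34.4% to 36.8% in blastocysts, and the groups of a stage lie close together beside that gap.

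Per kilobase of transcript, mt-Nd1, mt-Co1, mt-Atp6 and mt-Co2 led in morula NC libraries, with means of 61589, 56857, 56485 and 52214, and the libraries of each neighbouring pair overlapped. In blastocysts mt-Co1 led alone at 142437 and 132653 per kilobase in NC, ahead of mt-Co2 at 72250 and 79879 and mt-Nd1 at 74064 and 70318, which overlapped each other. mt-Nd3 was the lowest at both stages, at 4572 and 8358 in morula NC and 3788 and 4043 in blastocyst NC libraries. Among nuclear members Atp5b led in morula NC libraries, at 11078 and 11823 per kilobase, followed by Cox6a1 at 9467 and 9526. In blastocysts Cox6a1 (15381 and 15466) and Atp5b (15025 and 15267) were close. Atp5s was the lowest at both stages.

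Across the stages, 33 of the 78 nuclear members were lower in KD at both and 12 were higher at both. Another 25 were higher in KD morulae and lower in KD blastocysts, and 8 the reverse. Lower without overlap at both stages were 12 of the 78 (15.4%), beside 9.54% of the 12875 genes tested in both tables: Ndufa9, Ndufb11, Ndufb5, Ndufs3, Ndufv3, Uqcr10, Uqcrb, Uqcrc2, Cox6b1, Cox6c, Atp5e and Atp5s. Higher without overlap at both were Cox6a1 and mt-Co3, 2 of 91 members (2.20%), beside 9.41% of genes. The 2 stages share no libraries, and Pearson's r between their log2 fold changes was 0.36 across the 78 nuclear members and 0.039 across the 13 mitochondrial members; genes of a library are not independent replicates.

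RefSeq promoter windows of GRCm38.p6 were given for 64 of the 78 nuclear members. The NRF1 motif GCGCANGCG was present in 20 of these 64 (31.3%), where 7.03% of 27025 genes with a window held it. AAGATGGC, a motif of YY1, was in 9 (14.1%, beside 3.19% of all), and CCGGAAGT, bound by ETS factors such as GABP, was in 5 (7.81%, beside 4.31%); both strands were searched. Of the members with the NRF1 motif 14 of 20 were lower in KD blastocysts, with a median of -0.050, and of those without it 34 of 44 were, with a median of -0.091. All 9 members with the YY1 motif were lower, and 39 of the 55 without it, while the medians were -0.079 and -0.081.

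Other genes of the pathway were counted by list, and none of their genes passed in limma at either stage. Of 6 subunits and carriers that the symbol rule leaves out and that were tested, 2 were higher and 4 lower at both stages. Cox4i1, the widespread form of complex IV subunit IV, was higher without overlap in KD at both, at 7048 and 7389 against 8323 and 8040 in morulae and 10154 and 10178 against 10545 and 11844 in blastocysts. Usmg5, a subunit of the ATP synthase, was 1565 and 1495 in NC and 1187 and 1309 in KD blastocysts (-0.30; limma adjusted p = 0.258). Mitochondrial ribosomal proteins, which translate the mitochondrial messages, numbered 78. In KD blastocysts 53 were lower and 25 higher, with a median of -0.063. Without overlap 30 were lower and 8 higher there, beside 24.9% and 24.6% of all genes. In KD morulae 41 were lower and 37 higher, with a median of -0.012. Without overlap 16 were lower and 23 higher there, beside 21.2% and 20.7% of all genes. Mrpl17 came closest to the threshold, at 3421 and 3618 in NC and 2421 and 2278 in KD blastocysts (-0.58; limma adjusted p = 0.0805).

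Assembly factors were counted in the same way, those of the ATP synthase in a joint list with transport genes of the inner and outer mitochondrial membranes. In KD blastocysts 11 of 16 factors of complex I, 9 of 10 of complexes II and III and 17 of 25 of complex IV were lower. So were 7 of 10 genes of the joint list of ATP synthase assembly and mitochondrial membrane transport. Their medians were -0.15, -0.15, -0.062 and -0.13. Without overlap 6, 4, 8 and 6 were lower and 3, 0, 3 and 0 higher, beside 24.9% and 24.6% of all genes. Tmem70, an ATP synthase assembly factor, stood at 1712 and 2075 in NC and at 1378 and 1367 in KD blastocysts (-0.46; limma adjusted p = 0.157), and overlapped in morulae. Cox15, a heme A synthesis enzyme, was 1143 and 1307 in NC and 868 and 843 in KD morulae (-0.51; limma adjusted p = 0.402), and was lower without overlap in blastocysts too. In morulae those 4 lists had 8 of 16, 4 of 10, 15 of 25 and 4 of 11 genes lower. Without overlap 4, 2, 7 and 1 were lower there and 2, 0, 3 and 4 higher, beside 21.2% and 20.7% of all genes. At an unadjusted p under 0.05 in limma, 1 gene of the joint list was higher in KD morulae and 0 lower. At that threshold 1 factor of complex IV was higher and 1 lower in KD blastocysts.

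Genes that copy, transcribe and process mitochondrial DNA and RNA were lower in KD in 18 of 23 cases in morulae and 16 of 23 in blastocysts, with medians of -0.11 and -0.075, and 6 and 9 of them were lower without overlap, beside 21.2% and 24.9% of all genes. Another 3 in morulae and 2 in blastocysts were higher without overlap, beside 20.7% and 24.6% of all genes. Polg, the catalytic subunit of the mitochondrial DNA polymerase, stood at 1515 and 1497 in NC and at 1163 and 1156 in KD morulae (-0.38; limma adjusted p = 0.442). Tfam, which packages mitochondrial DNA and starts its transcription, stood at 808 and 958 in NC and at 757 and 586 in KD blastocysts (-0.40; limma adjusted p = 0.302). Both KD libraries were below both NC libraries in each case. Of 10 tested nuclear regulators of respiratory genes 6 were lower in morulae and 7 in blastocysts. Without overlap 2 were higher and 3 lower in morulae, beside 20.7% and 21.2% of all genes. In blastocysts 3 were higher and 2 lower without overlap, beside 24.6% and 24.9% of all genes. At an unadjusted p under 0.05 in limma, 1 was higher in KD blastocysts and 0 lower. Esrra, a receptor that activates such genes, was 1255 and 1012 in NC and 947 and 874 in KD blastocysts.

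The tricarboxylic acid cycle, which feeds NADH and succinate to complexes I and II, had 6 of 14 genes lower in KD morulae and 9 of 14 in KD blastocysts. Idh2, the mitochondrial NADP-dependent isocitrate dehydrogenase, stood at 2904 and 3212 against 3718 and 4291 in morulae (0.39; limma adjusted p = 0.429) and at 3827 and 3281 against 5439 and 4486 in blastocysts (0.48; limma adjusted p = 0.147). Sucla2, a subunit of succinyl-CoA synthetase, stood at 4056 and 3472 against 2240 and 2636 in morulae (-0.63; limma adjusted p = 0.362) and at 4761 and 4273 against 3921 and 3384 in blastocysts (-0.31; limma adjusted p = 0.229). The groups did not overlap for either gene at either stage, with Idh2 higher and Sucla2 lower in KD.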

How the data were processed

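RNA of 8 libraries (2 per group, 20 embryos each) was selected with oligo(dT) beads and sequenced in pairs, per the labels' protocols, so the levels of mitochondrial messages also depend on their tails. The values are a signal, deposited by the authors as normalized abundances in 1 table per stage; the submitters' processing notes name Salmon 0.14.1, DESeq2 and mm10 without saying how each was used. Whole reads could not be recovered from the values (14.2% to 35.0% of low values were whole multiples of the smallest step, within 0.01), so no count test was run. Among genes above 0 in only 1 library of a table, 95.0% to 100% of values were such multiples. With that step taken as 1 read, depth was roughly estimated at 13958296 to 23304923 reads per library.

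Gene IDs were matched to GENCODE vM21 (99.04% of morula and 99.09% of blastocyst rows). Genes with a mean of at least 10 over the 4 libraries of a table entered limma 3.58.1 on the scale log2(value + 1) (R 4.3.3; lmFit, eBayes with trend), comparing KD against NC within a table, with Benjamini-Hochberg adjustment over all genes tested and a threshold of 0.05. Log2 fold changes are on that scale, and for genes of low abundance they come out too small. At 2 libraries a group, an exact permutation test cannot pass 0.05. The difference between stages was a contrast in 1 fit of all 8 libraries. Levels per kilobase use the mean length of a gene's protein-coding transcripts. Members were named by rule: per complex and table the 2 nuclear members of smallest p, the 5 largest differences without overlap, the 4 mitochondrial members of smallest p and isoform families; further members were chosen after their values were seen. Of the pathway lists up to 3 genes of smallest p were named. The members and lists were chosen with earlier results of these data known. The method was tried on simulated data whose changes were larger than that of any member. That trial does not show whether differences as small as those of the members can be detected. Alternatives were another pseudocount, filters on low values, 3 scalings, limma without trend, a replicate block, both stages in 1 fit and each library left out. Counts of members in each direction under these settings were added after seeing the data.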

Additional observations from a re-analysis of the deposited data

How the results depend on the processing

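No member was called under any alternative except the replicate block. The replicate numbers are not stated to pair libraries, and same-numbered NC and KD libraries deviated together with r = 0.297 over genes in morulae and 0.146 in blastocysts (members 0.540 and 0.0539, mitochondrial members 0.708 and 0.516). With the replicate block, 892 genes and 1 member were called in morulae (Atp5g2, limma adjusted p = 0.0293, and up to 0.894 over the alternatives), and 1208 genes and 3 members in blastocysts (mt-Cytb, Cyc1 and Atp5g3, limma adjusted p = 0.0251, 0.0286 and 0.0353, and up to 0.911, 0.374 and 0.622). Over all genes, both stages in 1 fit called 18 in morulae, limma without trend called 0 at each stage, no filter called 27 in blastocysts and leaving out a library 1 to 3.

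Quantile normalization gave morula medians of 0.016 over members, 0.029 over nuclear members and -0.017 in complex V, and in blastocysts a mitochondrial median of 0.0049 with 7 of 13 higher. Rescaling to nuclear sums gave 0.0052, 0.012 and -0.033 in morulae. The blastocyst share difference was 2.84 points without mt-Co1.

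Leaving out 1 library moved morula medians to -0.019 to 0.011 (members), -0.036 to 0.0041 (nuclear), -0.089 to 0.065 (I), -0.060 to 0.025 (III), -0.014 to 0.050 (IV) and -0.051 to 0.015 (V), and the mitochondrial members higher to 1 to 11. In blastocysts the ranges were -0.086 to -0.010 (members), -0.12 to -0.015 (nuclear), -0.083 to 0.0032 (I), -0.22 to -0.085 (III), -0.066 to -0.010 (IV) and -0.086 to -0.015 (V). Of the 40 named and tested members, 20 in morulae and 28 in blastocysts kept their direction under all 13 alternatives. The causes were not tested.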
